A study of Mus musculus with 6 samples.

Results

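Kinesins are the motor proteins that walk along, slide or shorten microtubules, and their transcripts were compared between testes of knockout mice and testes of control mice at postnatal day 15. The members were the genes whose platform symbol is Kif followed by a digit, leaving out Kifap3, with 1 transcript cluster (a set of probes read as 1 transcribed region) per gene, the brighter where there were several. This gave 38 of the 19938 genes with 1 symbol: 13 mitotic kinesins, 9 ciliary kinesins, 15 transport kinesins and Kif4-ps, a pseudogene related to Kif4 that was kept apart. Each of 3 knockout and 3 control RNA samples had its own array, 6 in all, of the Affymetrix MoGene platform. The labels name whole testes and the age for both groups, and give neither the allele, the cells in which the gene was deleted, nor the genotype of the controls. Nor do they tie each replicate to an animal of its own, so a p-value here reflects the scatter of 3 against 3 RNA samples, part of which may be technical.

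In dividing cells kinesins build the spindle, move chromosomes and organise the midzone at which the cell is cut, and these motors are made mostly in cells that cycle. A smaller set carries cargo into cilia and flagella, or sets the length of the ciliary microtubules. The remaining kinesins move vesicles, organelles and RNA, above all in neurons but also in most other cells. In the testis the mitotic motors serve spermatogonia and spermatocytes, and ciliary motors serve the primary cilia of somatic cells and, later, the sperm tail. At this age germ cells of the first wave have come as far as pachytene of meiosis, so round spermatids and tails are not yet made.

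Windows around the annotated start sites of 5 members are shown. Kif15 and Kif14 were taken as mitotic kinesins with differences described below, and Kif23 as a mitotic kinesin without one. Kif27 was taken for the largest difference of all members and Kif3c as a transport kinesin. Windows running from 250 bases before the start site to 50 bases after it came from RefSeq (build GRCm38.p6), and 31 of the 38 members matched by symbol. Kif20a, Kif19a, Kif5b, Kif21b, Kif13b, Kif5a and Kif4-ps were not matched. On both strands they were searched for the cell cycle genes homology region (CHR, TTTGAA), through which cell cycle genes are repressed outside division, for the CCAAT box (CCAAT) and for the core of MYB sites (AACNG). In the lines below, 5′ to 3′ along the gene, capitals mark CHR and CCAAT matches in either orientation, and no CHR match shared a base with a CCAAT match.
Kif15, chr9:122950831-122951130, plus strand: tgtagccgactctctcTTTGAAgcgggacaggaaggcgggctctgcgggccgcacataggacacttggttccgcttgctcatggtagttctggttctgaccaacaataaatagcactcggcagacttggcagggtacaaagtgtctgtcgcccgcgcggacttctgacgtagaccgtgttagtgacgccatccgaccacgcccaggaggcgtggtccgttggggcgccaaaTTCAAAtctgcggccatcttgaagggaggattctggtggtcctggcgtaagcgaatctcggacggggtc
Kif14, chr1:136467598-136467897, plus strand: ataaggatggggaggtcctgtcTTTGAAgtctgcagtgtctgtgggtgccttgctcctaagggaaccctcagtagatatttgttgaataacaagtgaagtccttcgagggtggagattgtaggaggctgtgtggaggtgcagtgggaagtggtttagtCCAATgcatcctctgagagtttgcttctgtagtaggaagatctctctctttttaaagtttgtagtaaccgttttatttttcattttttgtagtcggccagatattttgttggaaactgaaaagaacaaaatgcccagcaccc
Kif23, chr9:61946750-61947049, minus strand: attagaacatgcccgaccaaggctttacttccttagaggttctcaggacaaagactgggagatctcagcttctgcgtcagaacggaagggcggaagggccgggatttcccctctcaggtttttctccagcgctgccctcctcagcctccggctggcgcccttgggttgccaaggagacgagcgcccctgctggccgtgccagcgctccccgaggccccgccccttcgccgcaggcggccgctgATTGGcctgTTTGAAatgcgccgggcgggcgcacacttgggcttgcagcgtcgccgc
Kif27, chr13:58354898-58355197, minus strand: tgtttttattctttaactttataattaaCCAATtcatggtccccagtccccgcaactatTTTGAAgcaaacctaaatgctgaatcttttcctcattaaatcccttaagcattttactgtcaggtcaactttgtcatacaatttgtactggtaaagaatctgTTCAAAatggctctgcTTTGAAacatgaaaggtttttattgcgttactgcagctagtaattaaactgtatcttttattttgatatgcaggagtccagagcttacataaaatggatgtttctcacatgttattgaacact
Kif3c, chr12:3364882-3365181, plus strand: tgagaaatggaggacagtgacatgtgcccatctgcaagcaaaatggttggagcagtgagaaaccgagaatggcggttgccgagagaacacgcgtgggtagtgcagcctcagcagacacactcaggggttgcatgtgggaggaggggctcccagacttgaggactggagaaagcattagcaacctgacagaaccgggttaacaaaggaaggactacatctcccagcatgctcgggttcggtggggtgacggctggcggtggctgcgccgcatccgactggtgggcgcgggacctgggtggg

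A CHR match was found in 9 of 13 windows of mitotic kinesins (69.2%, 9 of 12 genes), in 1 of 9 windows of ciliary kinesins (11.1%) and in 2 of 13 windows of transport kinesins (15.4%), against 17.9% of all 32851 windows. A CHR and a CCAAT match stood together in 46.2% of mitotic windows, 11.1% of ciliary and 7.69% of transport windows, against 6.95% of all. The CCAAT box alone was in 53.8%, 55.6% and 23.1% of the mitotic, ciliary and transport windows and in 37.4% of all. The MYB core, at 92.3%, 100% and 92.3% against 80.3% of all, was common everywhere. Kif15 had CHR matches at positions -234 and -19, counted from the start site, Kif14 had one at -228 and a CCAAT match at -92, and Kif23 had a CCAAT match at -7 and a CHR match at 3. Kif27, a ciliary kinesin, had CHR matches at -191, -89 and -73, the 1 ciliary member with any. In the window of Kif3c, a transport kinesin, neither motif was found. These are matches of letters around annotated start sites, and neither the true start of transcription nor binding was measured. The bases just before the start sites of Kif14, of Kif27 and of 1 window of the transport kinesin Kif1a resemble the end of an intron. These windows may thus not be promoters, and their matches are kept in the counts.

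No kinesin passed the test over all genes. With limma over 21789 clusters and Benjamini-Hochberg adjustment, 0 of the 38 members had an adjusted p under 0.05, where 0.0138% of all clusters did. The smallest adjusted p among the kinesins was 0.188, of Kif27, and the standard errors ran from 0.0386 to 0.129 on the log2 scale. With unadjusted p-values under 0.05, 9 kinesins were lower and 1 was higher in the knockout, that is 23.7% lower where 6.45% of all clusters were, and 1 higher where 4.10% of all clusters were. That 1 was 0 without knockout replicate 1, knockout replicate 2 or control replicate 2, where 2.81%, 4.16% and 3.38% of all clusters were higher. The count was 2 without knockout replicate 3, where 3.67% of all clusters were higher. Members on the lower side of the control mean numbered 28 of 38 (73.7%, against 47.0% of all clusters), with 9 on the higher side and Kif12 at no difference. The 3 knockout values lay below all 3 control values in 10 members (26.3%, against 8.60% of all clusters) and above them in 3 (against 6.73% of all clusters). Differences ran from -0.34 to 0.14 on the log2 scale, or 0.788-fold to 1.10-fold, with a median of -0.06 against 0.0033 over all clusters. Of all clusters, 5% lay below -0.17 and 5% above 0.14. Below the first value lay 6 kinesins, Kif27, Kif4-ps, Kif14, Kif9, Kif15 and Kif20a, and none lay above the second.

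**Figure D1:**
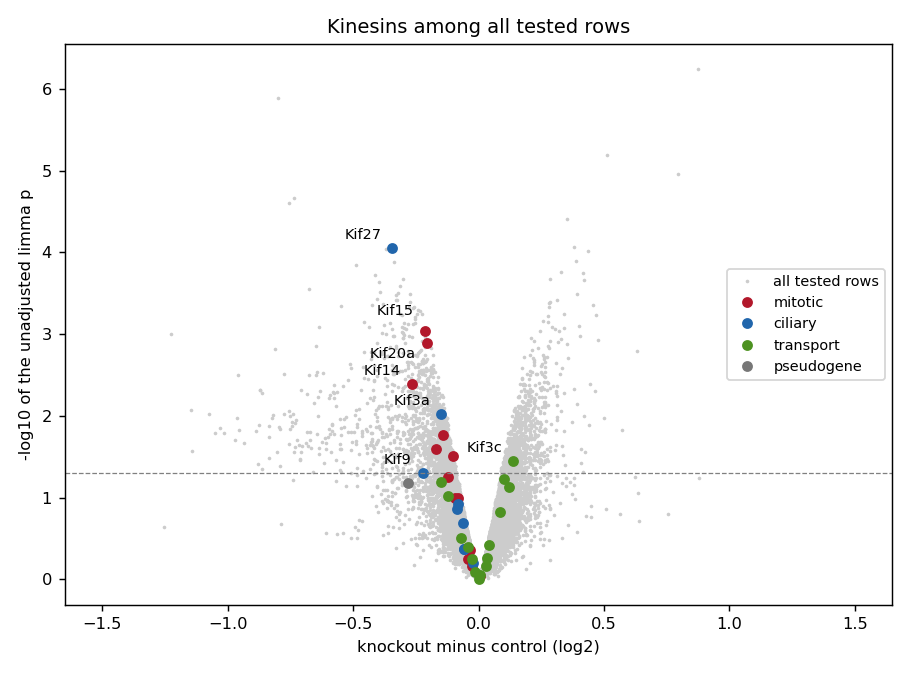
Difference (knockout minus control, log2, x axis) against -log10 of the unadjusted limma p (y axis) for all tested clusters in grey and for the 38 kinesins in colour. The dashed line marks an unadjusted p of 0.05; 9 kinesins lie above it on the left, with Kif27 highest, and Kif3c lies above it on the right.

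Mean values of mitotic kinesins lay mostly below those of the control, by small amounts that did not pass the test. Of the 13 genes, 12 lay below the control mean and 1 (Kif23) above it, where 47.0% of all clusters lay below. The median difference was -0.10 (0.931-fold). At an unadjusted p under 0.05, 6 were lower and 0 higher, 46.2% against the 6.45% of all clusters named above, and in 7 of the 13 all knockout values lay below all control values (53.8%, against 8.60% of all clusters). The count of 6 was 3 without control replicate 1, where 6.15% of all clusters were lower at that p. None passed over all genes (adjusted p of 0.259 to 0.977).

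Kif15, a plus-end motor that helps hold the spindle poles apart, read 9.73, 9.70 and 9.72 in the 3 knockout arrays, against 9.90, 9.93 and 9.96 in the 3 control arrays (log2 intensity). The groups were separate, and both were narrow. The difference was -0.21 (SE 0.0396, 0.863-fold, unadjusted p = 9.13e-04 in limma, adjusted p = 0.259). Kif20a, which carries the chromosomal passenger complex to the central spindle, read 10.78, 10.74 and 10.71 in knockout arrays, against 10.95, 10.97 and 10.93 in control arrays. Every knockout value again lay below every control value, with a difference of -0.21 (SE 0.0407, 0.867-fold, adjusted p = 0.275 in limma). Kif14, needed late in cytokinesis where it binds the midzone protein PRC1, had 8.42, 8.59 and 8.38 in knockout arrays, against 8.77, 8.67 and 8.75 in control arrays. Its groups were separate too, though knockout replicate 2 came near the lowest control value. Kif14 had the largest difference of the mitotic kinesins, -0.27 (SE 0.0645, 0.831-fold, adjusted p = 0.318 in limma). Its other cluster, much dimmer, differed by -0.03, with overlapping groups.

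Kif2c, which shortens microtubules at centromeres and so frees wrong attachments, read 10.27, 10.20 and 10.19 in knockout arrays, against 10.41, 10.33 and 10.34 in control arrays. The groups did not overlap, and the difference was -0.14 (SE 0.0454, adjusted p = 0.380 in limma). Kif4, an X-linked chromokinesin that acts on chromosome arms and the anaphase midzone, had 8.65, 8.71 and 8.53 in knockout arrays, against 8.87, 8.79 and 8.74 in control arrays. The highest knockout value lay just below the lowest control value, and the difference was -0.17 (SE 0.0608, adjusted p = 0.404 in limma). The pseudogene Kif4-ps gave 7.04, 6.80 and 7.10 in knockout arrays, against 7.03, 7.51 and 7.24 in control arrays, and these groups overlapped (-0.28, SE 0.129, unadjusted p = 0.0655 in limma; -0.16 without control replicate 2). Its second cluster differed by -0.19. Probes of Kif4 and of its related pseudogene may read each other's transcripts, so the values of both are uncertain.

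The other 8 mitotic kinesins had differences of -0.12 to 0.0067 and unadjusted p-values from 0.0308 up. Kif18a, which damps chromosome movements at the metaphase plate, differed by -0.10 (SE 0.0386), with separate groups. Kif2a, a depolymerase of spindle poles and of neurons, differed by -0.08 and was also separate. Kif11, the motor that pushes the spindle poles apart, differed by -0.12 (SE 0.0541), and Kif22, a chromokinesin that pushes chromosome arms outward, by -0.09; in both the groups met or overlapped. Kif18b, which trims astral microtubules (-0.04), Kif20b, a motor of late cytokinesis (-0.03), and Kif2b, another depolymerase of that family (-0.03), lay within the spread of the arrays. Kif23, the motor subunit of centralspindlin, read 10.79, 10.81 and 10.93 in knockout arrays, against 10.84, 10.79 and 10.88 in control arrays. Its groups overlapped fully, and the 95% interval of the difference ran from -0.12 to 0.13.

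**Figure D2:**
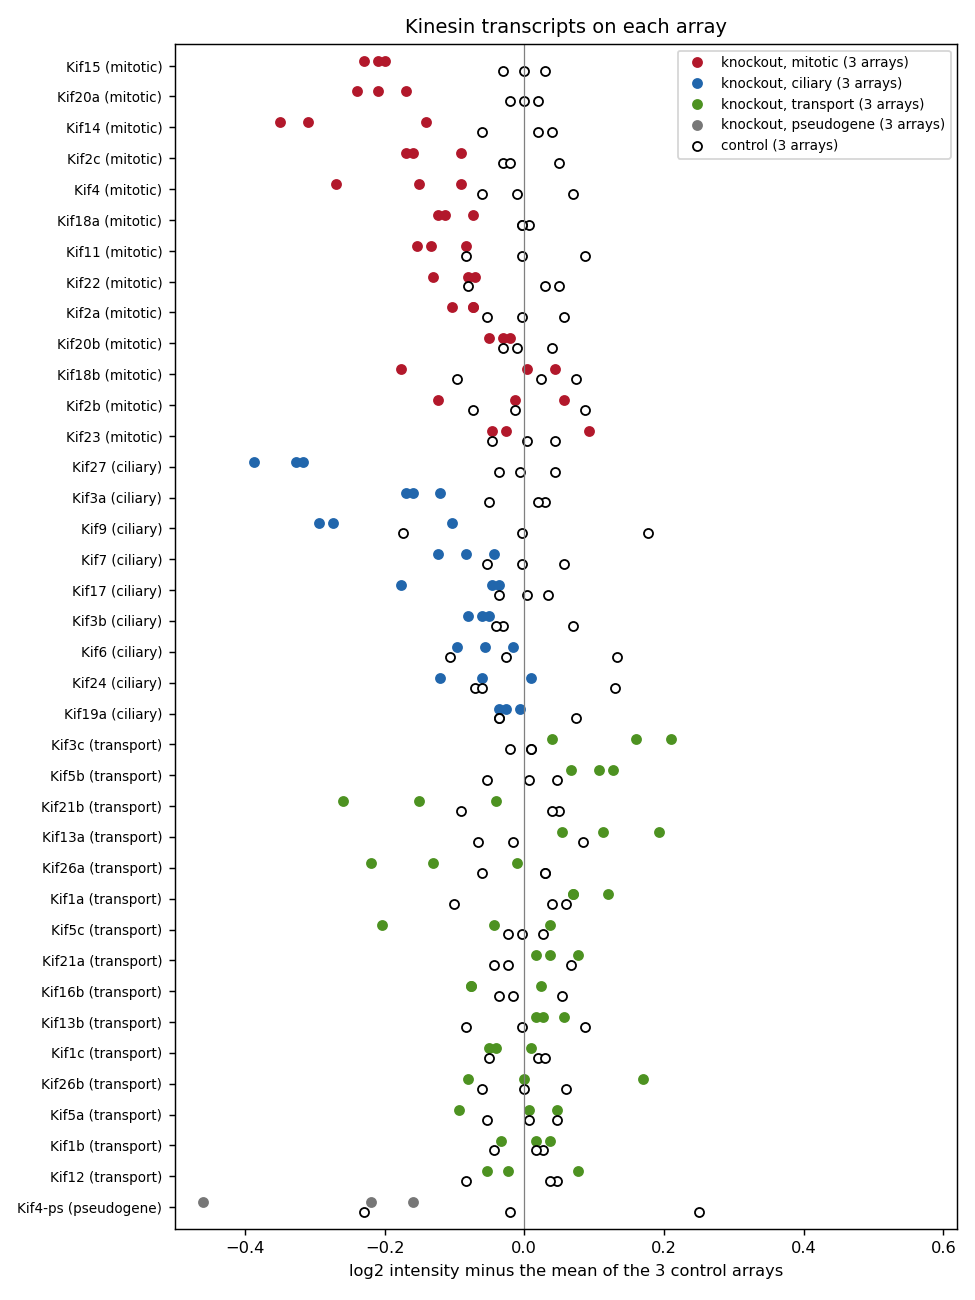
Log2 intensity of each kinesin on each array, minus the mean of the 3 control arrays of that gene (x axis); filled points are knockout arrays, coloured by functional group, and open points are control arrays. Within each group genes run from the smallest p at the top; Kif15, Kif20a, Kif14 and Kif27 show the filled points clear of the open ones, and Kif23 does not.

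Partners of the mitotic motors were alike in sign. Of 11 measured partners 10 lay below the control mean and 1 above, where 47.0% of all clusters lay below. The median was -0.12 (against 0.0033 over all clusters). At an unadjusted p under 0.05, 6 were lower and 0 higher, where 6.45% of all clusters were lower and 4.10% higher. Among the 6 was Cenpe (-0.12), itself a kinesin that the symbol rule leaves out. None of the partners passed over all genes. Prc1, which bundles midzone microtubules and recruits Kif4 and Kif14, read 9.97, 10.06 and 9.91 in knockout arrays, against 10.18, 10.25 and 10.19 in control arrays. Its groups were separate, with a difference of -0.23 (SE 0.0517, adjusted p = 0.294 in limma). Birc5 (-0.18) and Incenp (-0.16), 2 subunits of the passenger complex that Kif20a carries, were also separate. Racgap1, the other subunit of centralspindlin, differed by 0.01 (SE 0.0501), a value near that of its motor Kif23. Racgap1 was picked for this pairing with its values already in view.

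Ciliary kinesins lay below the control mean in all 9 genes (against 47.0% of all clusters), with a median difference of -0.08 (0.944-fold). That count was 7 without control replicate 2 and 8 without control replicate 3. At an unadjusted p under 0.05, 3 were lower (33.3%, against 6.45% of all clusters) and 0 higher, and 3 had separate groups (against 8.60% of all clusters). With fewer arrays to keep apart, 6 were separate without knockout replicate 2 (12.4% of all clusters) and 5 without control replicate 3 (14.3% of all clusters). None passed over all genes (adjusted p of 0.188 to 0.899).

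Kif27, a motor known from motile cilia whose protein binds the Fused kinase Stk36, read 7.63, 7.70 and 7.69 in knockout arrays, against 7.98, 8.06 and 8.01 in control arrays. The gap between the groups was several times the spread within either. The difference was -0.34 (SE 0.0438, 0.788-fold, 95% interval -0.45 to -0.24), the largest of the 38 members, and its unadjusted p of 8.76e-05 in limma ranked 9 among the 21789 clusters (adjusted p = 0.188). Kif7, its closest relative and a regulator of hedgehog signalling at the tip of the primary cilium, had 8.56, 8.64 and 8.60 in knockout arrays, against 8.68, 8.74 and 8.63 in control arrays. Its groups overlapped by 1 array, with a difference of -0.08 (SE 0.0470, adjusted p = 0.574 in limma; -0.055 without control replicate 2), and its other cluster differed by -0.03.

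Kif3a, the motor subunit of heterotrimeric kinesin-2, which carries trains of intraflagellar transport outward, read 9.52, 9.47 and 9.48 in knockout arrays, against 9.67, 9.59 and 9.66 in control arrays. Its groups were separate, with a difference of -0.15 (SE 0.0429, 0.901-fold, adjusted p = 0.358 in limma). Kif3b, the second motor subunit of the same complex, differed by -0.06 (SE 0.0456) with groups that were just separate, and by -0.028 without control replicate 2. The third subunit, Kifap3, which is not a motor and was likewise picked with its values in view, differed by -0.03 (SE 0.0385). The 3 subunits thus had differences of the same sign, and only in Kif3a was the unadjusted p under 0.05.

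Kif9, a motor of the central apparatus of motile cilia and sperm tails, read 8.92, 9.11 and 8.94 in knockout arrays, against 9.04, 9.39 and 9.21 in control arrays. The groups overlapped, since control replicate 1 lay below knockout replicate 2. The difference of -0.22 had a large error (SE 0.0949, unadjusted p = 0.0497, adjusted p = 0.472 in limma), and it was -0.31 without control replicate 1 and -0.14 without control replicate 2. Kif17, a homodimeric kinesin-2, had 8.15, 8.16 and 8.02 in knockout arrays, against 8.20, 8.23 and 8.16 in control arrays. These groups touched at 8.16, and the difference was -0.09 (SE 0.0520, adjusted p = 0.608 in limma), or -0.042 without knockout replicate 3. Kif6, a motor of ependymal cilia (-0.06), Kif24, which holds back cilium growth at the mother centriole (-0.06), and Kif19a, which sets ciliary length by shortening microtubules (-0.02), lay within the spread of the arrays. The other cluster of Kif6 differed by 0.013, with overlapping groups.

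Partners of the ciliary motors had a median of -0.10 over 12 genes (against 0.0033 over all clusters). Of these 12, 11 lay below the control mean and 1 above, where 47.0% of all clusters lay below. At an unadjusted p under 0.05, 4 were lower and 0 higher, against 6.45% and 4.10% of all clusters, and 0 passed over all genes. Stk36, the binding partner of Kif27, read 8.65, 8.68 and 8.69 in knockout arrays, against 8.89, 8.85 and 8.92 in control arrays. Its groups were separate and narrow, with a difference of -0.21 (SE 0.0408, 0.863-fold, adjusted p = 0.262 in limma). Ccp110, a centriole cap protein that acts with Kif24, had 10.36, 10.34 and 10.49 in knockout arrays, against 10.58, 10.73 and 10.62 in control arrays. These too were separate (-0.25, SE 0.0608, adjusted p = 0.320 in limma). Hydin, a large protein of the central apparatus, gave 7.37, 7.38 and 7.63 in knockout arrays, against 7.62, 8.19 and 8.18 in control arrays. Its groups overlapped at control replicate 1, as those of Kif9 did, and the difference was -0.54 (SE 0.158, adjusted p = 0.360 in limma).

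**Figure D3:**
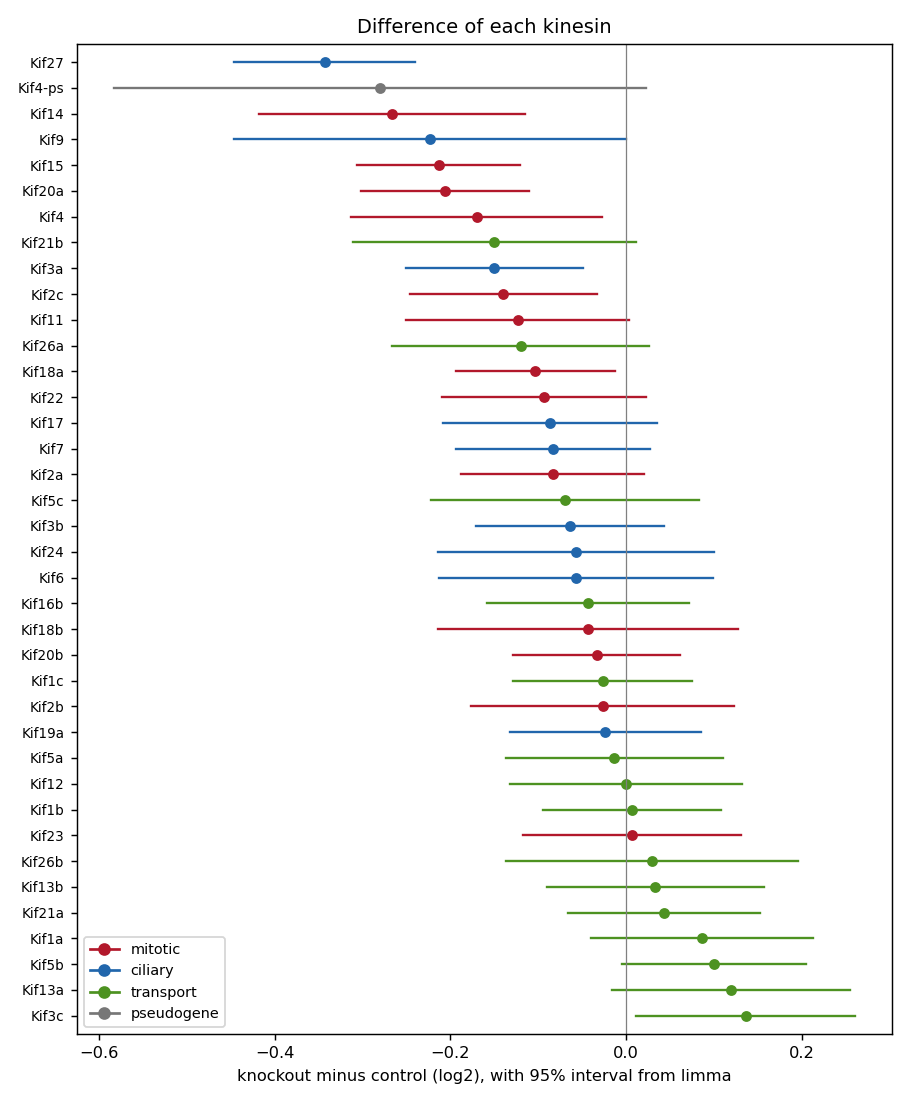
Difference of each kinesin (knockout minus control, log2 scale, x axis) with its 95% interval from limma, ordered from the lowest and coloured by functional group. The intervals of Kif27, Kif14, Kif15, Kif20a, Kif3a, Kif2c, Kif4, Kif18a and, barely, Kif9 lie wholly below 0. That of Kif3c lies just above 0, and all other transport kinesins have intervals across 0.

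Transport kinesins had differences on both sides of 0. Of 15 genes 6 lay below the control mean, 8 above it and 1 at it, where 47.0% of all clusters lay below. The median was 0.0067 (against 0.0033 over all clusters). At an unadjusted p under 0.05, 0 were lower and 1 was higher, against 6.45% and 4.10% of all clusters. Knockout values lay above all control values in 3 (6.73% of all clusters), and in 5 without control replicate 3 (12.7% of all clusters). None passed over all genes (adjusted p of 0.431 to 1).

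Kif3c, a kinesin-2 subunit that can pair with Kif3a or with itself and is best known from neurons, read 8.03, 8.08 and 7.91 in knockout arrays, against 7.88, 7.85 and 7.88 in control arrays. Knockout replicate 3 was nearest to the controls but still above them. The difference was 0.14 (SE 0.0531, 1.10-fold, adjusted p = 0.431 in limma), opposite in sign to Kif3a and Kif3b. Kif5b, the widely expressed heavy chain of conventional kinesin, had 11.64, 11.70 and 11.68 in knockout arrays, against 11.62, 11.58 and 11.52 in control arrays. The groups were separate by a small gap, and the difference was 0.10 (SE 0.0447, adjusted p = 0.486 in limma). Its neuronal relatives Kif5a (-0.01) and Kif5c (-0.07) had overlapping groups.

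Kif21b, a microtubule regulator of neurons and lymphocytes, read 8.60, 8.71 and 8.49 in knockout arrays, against 8.80, 8.79 and 8.66 in control arrays. The groups overlapped, with a difference of -0.15 (SE 0.0686, adjusted p = 0.496 in limma; -0.095 without knockout replicate 3), while its relative Kif21a differed by 0.04. Kif13a, an endosome motor, had 8.41, 8.49 and 8.35 in knockout arrays, against 8.28, 8.23 and 8.38 in control arrays, and 1 control array lay among the knockout values (0.12, SE 0.0578, adjusted p = 0.517 in limma). Kif26a, an atypical kinesin without motor activity, had 8.57, 8.48 and 8.69 in knockout arrays, against 8.64, 8.73 and 8.73 in control arrays. These overlapped as well (-0.12, SE 0.0624, adjusted p = 0.546 in limma; -0.07 without knockout replicate 2).

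The other 10 transport kinesins had differences of -0.07 to 0.09 and unadjusted p-values from 0.151 up. Kif1a, the carrier of synaptic vesicle precursors, differed by 0.09 (SE 0.0540) with separate groups, and by 0.037 without control replicate 2. Kif1b, a carrier of mitochondria and vesicles (0.0067), Kif13b (0.03), Kif16b, an endosome motor (-0.04), and Kif12 (0) lay within the spread. The clusters of some genes disagreed. Kif1c, a vesicle motor, differed by -0.03 in its brighter cluster and by 0.25 in its other cluster, in which all knockout values lay above the control values. Kif26b differed by 0.03 in the brighter cluster and by -0.21 in the other, where the groups overlapped. No direction is given for either gene.

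Of 11 measured partners of the transport motors, 6 were on the lower side of the controls, where 47.0% of all clusters were. The median difference was -0.06 (against 0.0033 over all clusters). Lower at an unadjusted p under 0.05 were 3 and higher 0, against 6.45% and 4.10% of all clusters, and 0 passed over all genes. Klc1, a light chain that links kinesin-1 to cargo, had 10.14, 10.22 and 10.11 in knockout arrays, against 10.26, 10.43 and 10.30 in control arrays. Its groups were separate, with a difference of -0.17 (SE 0.0584, adjusted p = 0.389 in limma), opposite in sign to the heavy chain Kif5b. Mapk8ip1, an adaptor of kinesin-1 (-0.14), and the minus-end motor Kifc2 (-0.12) were also separate. Kifc2 and Kifc3, both in this list, are themselves kinesins that the symbol rule leaves out.

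Averaged over its genes, the mitotic group lay -0.11, -0.10 and -0.14 from the control mean in the 3 knockout arrays, against 0.03, -5.13e-04 and -0.03 in the 3 control arrays. The ciliary group lay at -0.13, -0.10 and -0.13 in knockout arrays, against -0.05, 0.06 and -0.01 in control arrays. In both groups the knockout arrays were alike and all below the controls. Knockout list means also all lay below those of the controls for the marker lists of spermatogonia and of proliferating cells given below. The same held for the partner lists of all functional groups, though barely for mitotic partners (-0.061 in knockout replicate 2, -0.059 in control replicate 3). Transport partners lay at -0.04, -0.05 and -0.06 in knockout arrays, against -0.0045, 0.03 and -0.02 in control arrays. The transport kinesins themselves, at 0.01, 0.04 and -0.03 in knockout arrays and 0.02, -0.03 and 0.01 in control arrays, did not separate. The difference between the functional groups was not tested.

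Cell type markers were set beside the kinesins, and none of them passed over all genes. Of all clusters, 47.0% lay below the control mean and the median difference was 0.0033, as background to the counts and medians that follow. The 12 pachytene spermatocyte markers had a median difference of -0.47, 10 of 12 below the control mean, and their mean lay at -0.51, -0.45 and -0.27 in knockout arrays, against -0.34, 0.21 and 0.12 in control arrays. The groups overlapped there, with control replicate 1 among the knockout arrays, as in Kif9 and Hydin. Of 10 spermatogonial markers 9 lay below the control mean (list means -0.10, -0.12 and -0.14 in knockout arrays, against 0.06, -0.07 and 0.0077 in control arrays). Their median difference was -0.145, and the knockout list means all lay below those of the controls. The 11 markers of proliferating cells lay at -0.07, -0.07 and -0.05 in knockout arrays, against 0.02, -0.0094 and -0.0085 in control arrays, 8 of 11 below the control mean. Here too the list means of the groups were separate. The median difference of that list was -0.06. Bub1b, a kinase of the spindle checkpoint, led it with -0.37 (SE 0.0475, adjusted p = 0.188 in limma), followed by the cyclin gene Ccnb2 (-0.16). Bub1b thus weighed most in the list means. Above the control mean lay Cdk1 (0.09), Bub1 (0.07) and Pcna (0.01). Mki67, the common marker of cycling cells, differed by -0.07 (SE 0.0386), with separate groups. Mki67, and Foxj1 below, were picked with their values in view.

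On the higher side were 8 of 9 Sertoli cell markers (list means 0.07, 0.10 and 0.04 in knockout arrays, against 0.01, -0.03 and 0.02 in control arrays), 8 of 8 macrophage markers (0.12, 0.18 and 0.13 in knockout arrays, against -0.03, -0.06 and 0.10 in control arrays) and 4 of 5 Leydig cell markers, whose arrays overlapped. Median differences were 0.07 for Sertoli cells, 0.14 for macrophages and 0.37 for Leydig cells. The knockout list means of Sertoli cells and macrophages all lay above those of the controls. For Sertoli cells the margin was small (0.04 in knockout replicate 3, 0.02 in control replicate 3). Kitl (0.28) contributed most to it, and without Kitl the Sertoli list means overlapped. Markers of multiciliated epithelium, which could enter with ducts, lay at -0.15, -0.18 and -0.08 in knockout arrays, against -0.10, 0.10 and -0.0070 in control arrays. Of these 9 markers 7 were below the control mean, Foxj1, their master regulator, differed by -0.06 (SE 0.0733), and the groups overlapped. The largest differences were those of Ccdc39 (-0.39), Rsph1 and Tekt1 (-0.33 each). In these, control replicate 1 lay among the knockout values, as in the pachytene list. The rest of the list lay between -0.10 and 0.05. Whether Ccdc39, Rsph1 and Tekt1 were read from epithelium or from germ cells was not tested. The markers with the smallest p of the other lists were Ccna1 (-0.27) and Tcp11 (-0.74) for pachytene, Gfra1 (0.39) and Sall4 (-0.30) for spermatogonia, Kitl (0.28) and Wt1 (0.07) for Sertoli cells, Hsd17b3 (-0.43) and Cyp11a1 (0.37) for Leydig cells, Cx3cr1 and C1qc (0.16 each) for macrophages, and Rsph1 (-0.33) and Ccno (-0.10) for multiciliated epithelium. RMA values have no true 0, so absence of a cell type cannot be read from them. The part of these markers in the kinesin differences was not tested. In whole testes, fewer cells of a type and less RNA per cell cannot be told apart.

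**Figure D4:**
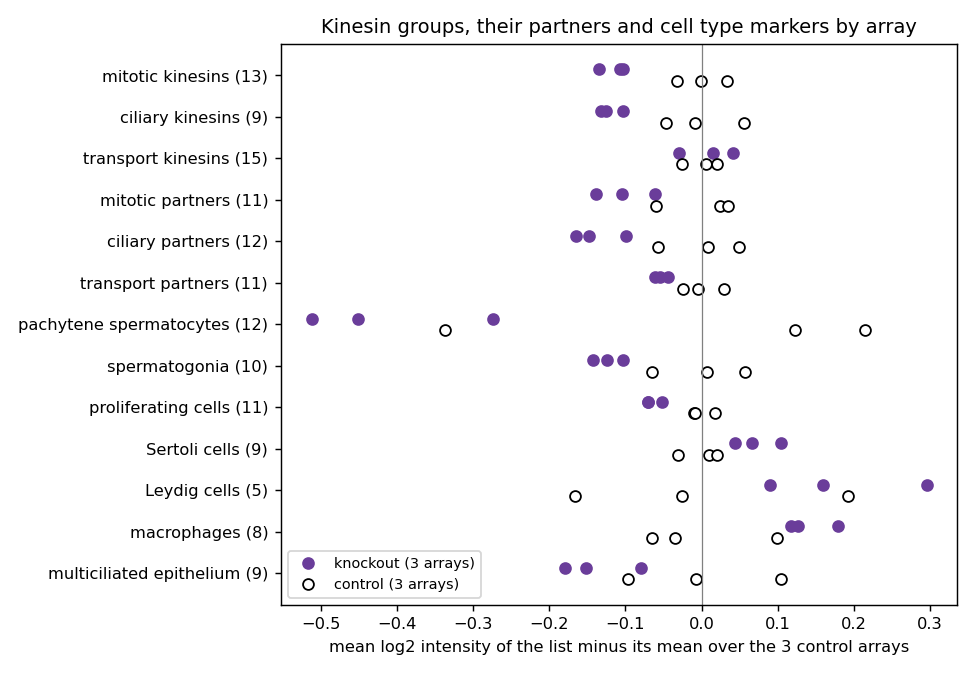
Mean log2 intensity of each gene list on each array, minus the mean of the 3 control arrays (x axis), with the number of measured genes in brackets; filled points are knockout arrays and open points control arrays. Mitotic and ciliary kinesins lie left of their controls in all 3 knockout arrays, and transport kinesins do not. The partner lists of all functional groups (mitotic partners barely) and the markers of spermatogonia and proliferating cells also lie left. Markers of macrophages and, by a small margin, of Sertoli cells lie right. The pachytene markers spread far more widely and overlap.

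Testis markers were measured (9 of 10 for Sertoli cells, all 10 for spermatogonia, all 12 for pachytene spermatocytes), but levels of different probe sets are not comparable, so the labelled tissue could not be checked from them. The arrays had medians of 8.075 to 8.1, and the lowest correlation between any pair was 0.995 within a group and 0.995 across groups, rounded. Pairs of arrays shared at most 4.12% identical values, so none was a copy of another. The number of arrays limits the precision.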

How the data were processed

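Per the submitters' processing notes, the authors made the log2 values with RMA in Affymetrix Expression Console. RMA corrects background, quantile-normalises and summarises the probes of a cluster on the log2 scale, so a change common to all transcripts would not be seen, and differences of dim clusters are compressed. No versions, and no annotation that the authors used, are stated there. Clusters were named through the platform annotation (1 symbol: 21789 of 35556 rows) and symbols updated through gene identifiers to the RefSeq table of GRCm38.p6. The genotypes were compared by limma 3.58.1 under R 4.3.3 (lmFit, eBayes, no covariates; 4 residual and 3.24 prior degrees of freedom), with Benjamini-Hochberg adjustment over all 21789 clusters. Differences are knockout minus control, n is 3 arrays per group, and intervals are 95%. The procedure was also run on simulated data. Noise there was independent for each cluster, so that run cannot speak to genes that vary together across arrays. The members, functional groups, partner and marker lists were chosen with earlier results of these data known. Every kinesin could be named; values per array are given for the 5 with the smallest p in each functional group and, picked with their values in view, for Kif23 and Kif4-ps, and for partners the 3 with the smallest p were named (markers 2), beside genes said to be picked with values in view. A dim filter (mean above the lowest 25% of clusters) kept 36 of 38 members and dropped Kif2b and Kif12. The alternatives were leaving out each array, the replicate number as a block, an intensity trend with robust prior, the dim filter, all rows, median-centred arrays and averaging a gene's clusters. The targeted gene is not reported here, so it was not used to check the labels.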

Additional observations from a re-analysis of the deposited data

How the results depend on the processing

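No kinesin passed the threshold under any of the 12 alternatives run, and the lowest adjusted p in any was 0.0674, of Kif27 without control replicate 1 (range 0.0674 to 0.640). The median difference of the mitotic kinesins stayed between -0.13 (without control replicate 3) and -0.08 when 1 array was left out, that of the ciliary kinesins between -0.11 and -0.07, and that of the transport kinesins between -0.02 and 0.03. Counts at an unadjusted p under 0.05, recomputed under these alternatives after seeing the data, were 7 to 10 lower (9 with all arrays) and 0 to 3 higher (1 with all arrays), so the count of higher kinesins was not stable. With 1 array left out, 4.41% to 6.15% of all clusters were lower at that p and 2.81% to 5.01% higher. The shares of all clusters under the other alternatives were not computed. Without control replicate 1, 3 mitotic kinesins were lower at that p in place of 6. With arrays centred on their medians, all clusters shifted to a median of 0.02, and the medians of the 3 groups were -0.08, -0.06 and 0.03. Kif14 was at -0.15 when its 2 clusters were averaged; its second cluster is much dimmer. In 25 kinesins the difference moved by over 1.5 times or changed sign when 1 array was left out. Among them Kif11 came to -0.08 and Kif2a to -0.055 without control replicate 1. The signs of 26 kinesins held throughout, Kif12 was at 0, and those of 11 did not hold; the cause was not tested. When 1 array was left out, the difference ran from -0.0083 to 0.077 for Kif13b, from -0.092 to 0.023 for Kif18b, from -0.042 to 0.013 for Kif19a, from -0.015 to 0.027 for Kif1b, from -0.037 to 0.033 for Kif23, from -0.092 to 0.0083 for Kif24, from -0.04 to 0.085 for Kif26b, from -0.068 to 0.022 for Kif2b, from -0.043 to 0.027 for Kif5a and from -0.11 to 0.01 for Kif6. With centred arrays Kif5a was at 0.0067. With the clusters of a gene averaged, Kif1c was 0.11 and Kif26b -0.09.

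Replicate numbers are shared by the groups, but deviations of same-numbered arrays correlated at 0.167, -0.0536 and 0.170, so the numbers were not taken to pair samples, and knockout replicate 2 correlated best with another number. With the replicate number as a block, 0 kinesins passed and 9 were lower at an unadjusted p under 0.05, with median differences of -0.10, -0.08 and 0.0067 for mitotic, ciliary and transport kinesins. The share of all clusters lower under the block was not computed, so that count has no background beside it.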
